A study of Homo sapiens with 16 samples.

Results

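SW620 colon cancer cells that had been given estrogen receptor beta (ERB, encoded by ESR2) by transduction were compared with SW620 cells transduced with an empty vector. The comparison rests on 4 of the 16 libraries of the study, 2 with ERB and 2 with empty vector, chosen by their labelled line, construct and absence of treatment and not by any measured value. SW620 is an established line grown from a lymph node metastasis of a colon adenocarcinoma, and it was cultured in DMEM with fetal bovine serum. None of the compared cells received a treatment. The other 6 SW620 libraries, also 2 per group, were from untransduced parental cells without treatment, from ERB cells after 24 h in the solvent DMSO, and from ERB cells after 24 h with 10 nM estradiol. They enter here only as levels and as a source of the estimate of the spread. The remaining libraries are of SW480, a line from the primary tumour of the same patient, as parental, empty vector and ERB cells.

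Estrogen receptor beta is a nuclear receptor: bound to estradiol or another ligand, it pairs with a second receptor molecule, binds estrogen response elements in DNA and recruits coregulators to nearby genes. It can also act without touching DNA itself, by joining other factors such as AP-1 at their sites. In the colon epithelium it is the main estrogen receptor and is known for lower levels in tumours, which is why it is put back into tumour lines. The labels name a single line for this comparison and say neither which promoter drives ERB nor whether the cells are a pool or a clone. They also do not say whether the serum was stripped of steroids, so the amount of ligand in the medium is not known. The labels number the libraries of a group I and II, and nothing says whether these were grown separately. All p-values therefore reflect the spread among libraries alone, which may be technical.

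The 4 compared libraries held 15788126 to 18740158 counted reads each, within a range of 12743940 to 18740158 over all SW620 libraries. Epithelial keratins were abundant in all of them: KRT8 stood between 4916 and 6391 CPM and KRT18 between 2765 and 3701 CPM (read counts scaled to a common library size with TMM factors, as all levels below unless another scale is named). VIL1, which encodes the microvillus protein villin, and HNF4A, a transcription factor of the gut epithelium, lay between 595 and 689 and between 182 and 209 CPM. CDX1, an intestinal homeobox gene, had 0 reads in all 10 SW620 libraries, and the differentiation markers KRT20 and LGALS4 did not exceed 0.460 and 0.697 CPM. The cells thus carried the keratins of an epithelium but lacked or barely held 3 of the 12 colon markers. Of the endothelial markers PECAM1, CDH5, KDR and EMCN, and of the leukocyte markers PTPRC, CD3E, MS4A1, CD53 and TYROBP, no read was counted in the 4 libraries.

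The libraries with ERB differed from those with empty vector by less than the 2 empty vector libraries differed from each other. Over 10861 genes, the root mean square log2 difference of the 4 pairs of an ERB and an empty vector library was 0.282 to 0.319. Between the libraries of a group it was 0.213 for ERB, 0.426 for empty vector and 0.687 for parental cells. From parental cells, the empty vector libraries were 0.280 to 0.713 apart and the ERB libraries 0.384 to 0.601. The ERB libraries with DMSO and with estradiol, which were also handled for a treatment, lay 0.909 to 1.07 and 0.688 to 0.751 from the untreated ERB libraries. The difference between empty vector libraries I and II was correlated across genes with the GC content of the transcripts (r = 0.692 over 10751 genes, which are not independent replicates). A trend of similar size was seen between the parental libraries (-0.706), with DMSO (0.713) and with estradiol (-0.694). The correlation was 0.109 between the ERB libraries and -0.0716 between the mean of ERB and the mean of empty vector.

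**Figure D1:**
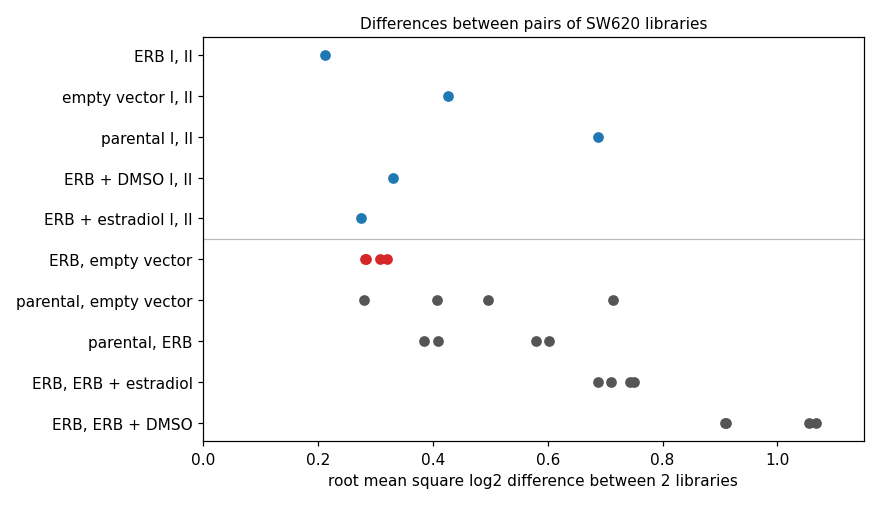
Root mean square log2 difference (horizontal axis) between 2 SW620 libraries. Each point is 1 pair, blue within a group, red between ERB and empty vector, grey between other groups. Not drawn are pairs of a DMSO or estradiol library with an empty vector or parental library, or of DMSO with estradiol. The red points lie between 0.282 and 0.319, below the 0.426 that separates the 2 empty vector libraries.

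ESR2 rose in the transduced cells. It had 162 and 187 reads in ERB libraries I and II, against 1 and 1 read in the empty vector libraries. Scaled by the library total alone, these were 10.3 and 9.98 CPM with ERB, or 10.1 ± 0.20 (SD, n = 2), against 0.0574 and 0.0580 CPM in the controls, so that the groups are far apart and the ERB libraries nearly equal. The ratio of the summed, depth-scaled reads was 175, with an exact 95% interval of 48.1 to 1451 that covers counting error only. ESR2 (ENSG00000140009) had a log2 fold change of 7.29 (SE 0.41, Benjamini-Hochberg adjusted p = 0.000266, edgeR's quasi-likelihood test over all genes). On the same scale the other libraries carrying ERB held 9.50 and 7.85 CPM after DMSO and 12 and 10.3 CPM after estradiol. No read was counted in either parental library. Whether reads come from the introduced copy or from the cell's own gene cannot be told from counts per gene.

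Among nuclear receptor genes, the introduced receptor reached a middle rank. On the FPKM scale, which divides reads by transcript length and so allows levels of different genes to be compared, ESR2 stood at 8.31 and 8.27 with ERB against 0.0296 and 0.0162 with empty vector. By the mean of the ERB libraries this was rank 13 of the 44 nuclear receptor genes. The highest were NR1H3, a receptor for oxysterols, at 42.0 and 38.8 FPKM, HNF4A at 38.3 and 38.3, and the orphan receptor ESRRA at 35 and 28.1. The neighbours of ESR2 in that order were the orphan receptor NR2F2, at 7.05 and 10.4 FPKM, and VDR, the vitamin D receptor, at 8.46 and 7.20. The values of both neighbours span those of ESR2, so the order of these 3 is not resolved. ESR1, the gene of estrogen receptor alpha, had 0 reads in all 10 SW620 libraries, and so had the progesterone receptor gene PGR, a classical estrogen target.

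**Figure D2:**
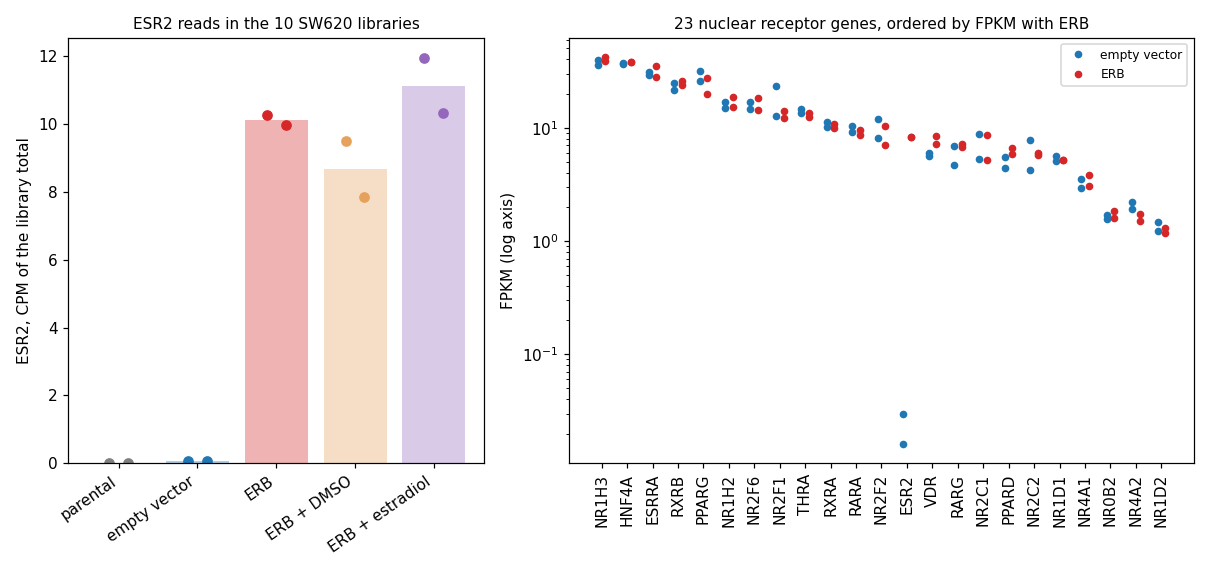
Left, ESR2 as CPM of the library total (linear axis) in the 10 SW620 libraries, with points for libraries and bars for the mean of 2. Right, FPKM (log axis) of the 23 nuclear receptor genes with the highest mean in the ERB libraries, blue for empty vector and red for ERB; ESR2 is at 8.31 and 8.27 with ERB and below 0.03 with empty vector.

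No other gene passed the test. ESR2 was the 1 gene called of 16533 tested (0.00605%), and the smallest adjusted p of any other gene was 0.999 in edgeR's quasi-likelihood test. At an unadjusted p under 0.05 stood 282 genes (1.71%). With offsets that removed each library's trend with transcript GC content and length, there were 678. The share without offsets is below the 0.05 that such a test would give with no differences. The lack of calls therefore does not show that no gene differed. The ERB libraries were both above both empty vector libraries for 1813 genes (11% of those tested) and both below for 1963 (11.9%). The median log2 fold change over all genes was 0.0015. A mean of at least 5 CPM in one of the groups was reached by 10798 genes, whose log2 fold changes had a 5th percentile of -0.27 and a 95th of 0.25. Of these genes, 9760 (90.4%) had a 95% interval within 2-fold in either direction, and 10786 (99.9%) within 4-fold. The 4 libraries fitted alone gave 3 calls of 15549 genes (0.0193%), with ESR2 and EEF1A2 among them.

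**Figure D3:**
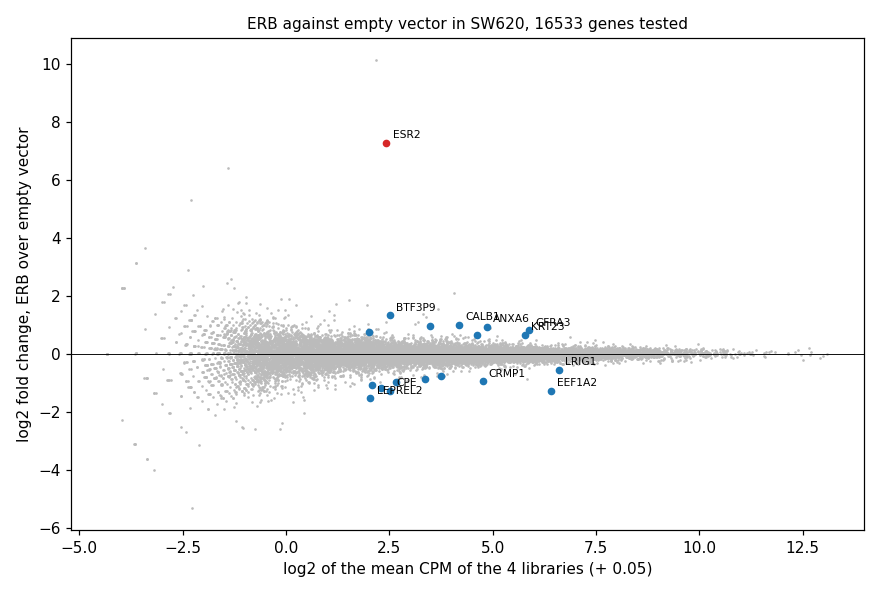
Log2 fold change of ERB over empty vector (vertical axis) against the log2 of the mean CPM of the 4 libraries (horizontal axis, 0.05 added) for the 16533 genes tested. ESR2 is in red at 7.29; the genes of smallest unadjusted p named in the text are in blue.

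Of the 10798 better expressed genes, 18 differed by 2-fold or more, 13 higher and 5 lower with ERB. For 6 of the 18 the groups overlapped, which leaves 7 higher and 5 lower genes with the groups apart. The 5 lower genes were all protein-coding: LEPREL2, CPE, EEF1A2, FHL1 and RHOBTB1. Among the 7 higher ones were ESR2, CALB1 and the processed pseudogene BTF3P9, whose reads may be shared with near-identical copies. RPS10, QKI and MICU2, also among them, are named here after their values were seen. RPS10, a ribosomal protein gene, had 30.1 and 7.67 CPM with ERB against 6.74 and 6.15, so that its difference lay in ERB library I. On the FPKM scale the groups overlapped at a high level, with 692 and 729 with ERB against 788 and 613. QKI, an RNA-binding regulator of splicing, had 5.43 and 5.13 CPM with ERB against 1.76 and 3.39. MICU2, a subunit of the mitochondrial calcium uniporter complex, had 13.7 and 9.53 CPM with ERB against 4.28 and 7.13.

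EEF1A2, the translation elongation factor form of neurons and muscle, had 134 and 106 CPM in empty vector libraries I and II and 46.6 and 53.1 with ERB. Both ERB values lay far below either control value, with a log2 fold change of -1.27 (SE 0.31). CRMP1, a cytoskeletal regulator of growing axons, had 39.7 and 31.4 CPM with empty vector against 18.5 and 18.6 with ERB (log2 -0.94, SE 0.20). The ERB libraries agreed closely and both lay below the controls. CPE, an enzyme that trims prohormones, had 7.30 and 8.74 CPM against 2.98 and 3.66 (log2 -1.27, SE 0.26), and CHGB, a protein of secretory granules, had 6.99 and 9.72 CPM against 3.84 and 4.62 (log2 -0.98, SE 0.26). For these 2 genes as well the groups did not overlap.

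These 4 genes did not hold one order in the other SW620 libraries. EEF1A2 was at 173 and 295 CPM in parental cells, above both empty vector libraries, and at 31.9 and 17.1 with DMSO and 55.6 and 67.8 with estradiol. CRMP1 was likewise highest in parental cells, at 53.5 and 67.8 CPM, with 19.8 and 18.0 after DMSO and 30.8 and 30.1 after estradiol. CPE and CHGB were lowest in the untreated ERB libraries: with DMSO, CPE stood at 18.0 and 20.1 CPM and CHGB at 23.5 and 26.4. The DMSO and estradiol cells carried ERB too, so a low level of CPE or CHGB was not common to all libraries with ERB.

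None of the 4 was called by default, and CPE and CHGB passed in none of the 21 settings. For EEF1A2 and CRMP1 the call depended on the fit. EEF1A2 passed with the 4 compared libraries alone (adjusted p = 0.00531, edgeR's quasi-likelihood test), and over 21 settings its adjusted p ran from 2.92e-05 to 1. CRMP1 passed once offsets removed each library's trend with transcript GC content and length (adjusted p = 0.0385), and over the 21 settings its adjusted p ran from 0.0327 to 1.

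Other lower genes had varied roles. FHL1, a LIM domain protein best known in muscle, had 6.36 and 7.13 CPM with empty vector against 2.98 and 3.04 with ERB (log2 -1.16, SE 0.22). Its levels with DMSO, 15.1 and 15.7 CPM, were above all untreated SW620 libraries. LEPREL2, a collagen prolyl hydroxylase, had 6.55 and 5.58 CPM against 1.85 and 2.31 (log2 -1.53, SE 0.33), and it stayed at 2.07 and 1.66 CPM with DMSO. Not called by default, LEPREL2 passed in 1 of 21 settings, without a low-count filter (adjusted p = 0.00896, edgeR's quasi-likelihood test). GALNT10, which starts mucin-type sugar chains, had 12.5 and 13.8 CPM against 6.49 and 8.0, and 5.02 and 5.05 with DMSO. For LEPREL2 and GALNT10, then, the DMSO-treated ERB libraries were also below both empty vector libraries. CPVL, a carboxypeptidase, had 16.9 and 17.2 CPM against 9.01 and 11, and RHOBTB1, an atypical GTPase, had 4.85 and 6.44 CPM against 2.78 and 2.54. LRIG1, a membrane protein that restrains growth factor receptors and marks intestinal stem cells, had 113 and 118 CPM against 78.8 and 79.4 (log2 -0.54, SE 0.15). It was the gene with the smallest difference among the 10 and one of the best expressed.

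The higher genes with the smallest unadjusted p came from membrane, calcium-binding and keratin families. KCNS3, a modifying subunit of voltage-gated potassium channels, had 7.81 and 7.30 CPM with empty vector against 13.2 and 16.1 with ERB (log2 0.96, SE 0.24). Parental cells matched empty vector at 7.39 and 7.54 CPM, and the DMSO libraries were lower still, at 3.90 and 5.43. GFRA3, a receptor subunit for the neurotrophic factor artemin, had 48.8 and 37.0 CPM against 72.9 and 78.6 (log2 0.82, SE 0.21). CALB1, the calcium buffer calbindin, had 10.4 and 13.7 CPM against 28.1 and 20.4 (log2 1.01, SE 0.26), with 6.42 and 4.44 in parental cells. ANXA6, a calcium-dependent membrane-binding protein, had 22.0 and 17.6 CPM against 37.0 and 38.8 (log2 0.94, SE 0.25), and 5.11 and 8.72 in parental cells. For CALB1 and ANXA6 the empty vector libraries themselves thus lay above the parental ones. With DMSO, GFRA3 (28.8 and 31.1 CPM) and ANXA6 (9.53 and 10.3) lay below both empty vector libraries, and CALB1 (20.9 and 24.4) above both.

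Among untreated libraries KRT23, a type I keratin, followed the order of CALB1 and ANXA6. The parental libraries were lowest at 15.5 and 17.6 CPM, then empty vector at 40.0 and 45.0 and ERB at 63.7 and 70.2. With DMSO KRT23 stood at 30.2 and 34.8 CPM and with estradiol at 34.6 and 32.2, below both empty vector libraries. MARVELD1, a membrane protein of the MARVEL family, had 19.1 and 19.0 CPM with empty vector against 30.3 and 29.8 with ERB, and 47.2 and 51.6 with estradiol. CA5B, a mitochondrial carbonic anhydrase, had 2.90 and 3.05 CPM against 5.37 and 4.73. These 2 genes were higher in every library with ERB, the treated ones included, than in any library without. The pseudogene BTF3P9 had 3.97 and 2.53 CPM against 7.35 and 8.91, and its assignment is uncertain. None of these genes was called. ANXA6 and GFRA3 passed in 1 setting, chosen after seeing the data, with the 4 compared libraries alone and GC and length offsets (adjusted p = 0.0327 each, edgeR's quasi-likelihood test), and over 21 settings the adjusted p of either ran from 0.0327 to 1.

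The treated ERB libraries and the parental libraries allow a wider view of the 20 genes of smallest unadjusted p, 10 per direction. All 6 libraries with ERB lay above all 4 without for 3 of the 10 higher genes, ESR2, MARVELD1 and CA5B, as for 280 of all genes tested (1.69%). They lay below for 5 of the 10 lower genes, CRMP1, LEPREL2, EEF1A2, GALNT10 and LRIG1, as for 301 of all genes (1.82%). The 20 genes had been chosen as apart between ERB and empty vector, so these shares are a description and cannot be read against the background. For FHL1, CPE, CHGB, RHOBTB1 and CPVL at least the DMSO libraries passed the lowest library without ERB. For RHOBTB1 the estradiol libraries, at 4.42 and 4.18 CPM, did not, nor did estradiol library II for CPVL, at 16.7 CPM.

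**Figure D4:**
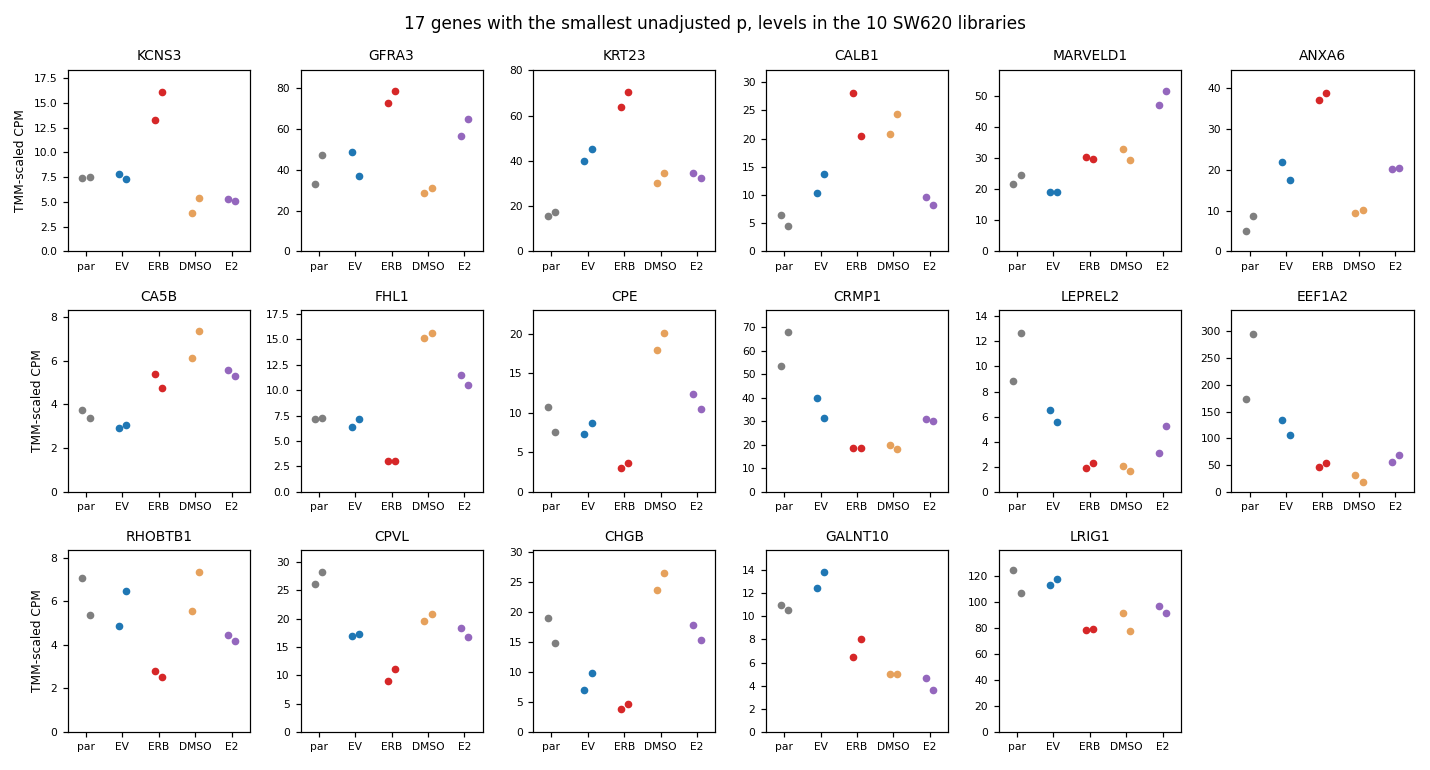
TMM-scaled CPM (linear axes from 0) of 17 genes in the 10 SW620 libraries, 2 points per group: par, parental; EV, empty vector; ERB, untreated ERB; DMSO and E2, ERB cells with DMSO and with estradiol. The genes are those of smallest unadjusted p described in the text, without ESR2 and BTF3P9; EEF1A2, for example, runs from 295 in a parental library to 17.1 in a DMSO library.

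Promoter sequence was examined for the genes of smallest unadjusted p named above. RefSeq windows of 300 bases on GRCh38.p14, another build than the GRCh37 of the deposited files, were found for 14 of them. The full estrogen response element, GGTCANNNTGACC on either strand, occurred in 0 of the 14 and in 20 of 35116 windows of all genes (0.057%). Its half-site, GGTCA on either strand, which the full element also contains, was in the windows of KCNS3, ANXA6, CA5B and CPE, or 4 of 14, and in 37.4% of all windows. The AP-1 site TGANTCA was in 0 of 14 and in 7.71% of all. Of the genes with a half-site, KCNS3, ANXA6 and CA5B were higher with ERB and CPE was lower. ESR2, GFRA3 and MARVELD1, also higher, held none, and neither did the other lower genes with a window. The ESR2 window is that of the cell's own gene, while the labels do not name the promoter of the introduced copy. The 14 windows are too few to relate half-sites to the direction of the difference, which was not tested. The 250 bases before the start of ANXA6, which hold a half-site, and of CRMP1, which hold none, are shown as examples of windows with and without it. Both lie on the minus strand, ANXA6 at chr5:151157780-151158029 and CRMP1 at chr4:5893087-5893336, and are written 5′ to 3′ toward the gene with the half-site in capitals.
ANXA6: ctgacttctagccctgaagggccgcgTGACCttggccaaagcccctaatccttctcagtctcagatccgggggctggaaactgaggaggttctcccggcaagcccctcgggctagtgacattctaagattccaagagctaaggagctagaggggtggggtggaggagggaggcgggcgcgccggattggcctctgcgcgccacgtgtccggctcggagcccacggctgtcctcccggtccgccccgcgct
CRMP1: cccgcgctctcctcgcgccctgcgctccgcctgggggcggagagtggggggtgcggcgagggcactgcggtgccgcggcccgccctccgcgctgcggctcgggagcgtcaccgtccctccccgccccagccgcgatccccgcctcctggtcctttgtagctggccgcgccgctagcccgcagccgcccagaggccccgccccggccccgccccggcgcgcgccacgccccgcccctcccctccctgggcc
The half-site in ANXA6 reads as TGACC on this strand. A match of these letters is a description and not a binding site.

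The gene lists held 554 different genes of the count table, of which 435 were tested and 1, ESR2, was called. Over all 16533 genes tested 1 was called (0.00605%). With that share as the background, 0 called members in a list below is no result about that list. Classical estrogen response genes showed no common direction. Of the 31 on the list 21 were tested and 0 called, with 3 whose ERB libraries were both above the controls (11% of all genes tested) and 5 both below (11.9% of all), and a median log2 fold change of -0.05 (0.0015 over all). These 2 shares of all genes are the background for each such count below. GREB1, an estrogen-induced growth gene, had 1.57 and 1.44 CPM in the controls against 2.19 and 1.41 with ERB. TFF1, a secreted trefoil peptide, had at most 0.189 CPM in the 4 libraries and was not tested. OLFM1, a secreted glycoprotein, had the lowest fold change of the list, with 1.51 and 1.32 CPM against 0.464 and 0.620 (log2 -1.36). ADORA1, an adenosine receptor, had the highest, with 3.40 and 1.78 CPM against 4.5 and 3.55.

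No gene that works with the receptor or shapes its ligand was called. Of 38 coregulators 35 were tested and 0 called, with log2 fold changes from -0.28 to 0.69 and a median of -0.02. The upper end was LCOR, a ligand-dependent corepressor, at 1.83 and 2.93 CPM with empty vector against 4.57 and 3.16 with ERB. Among enzymes of estrogen metabolism, 17 of 28 were tested and 0 called, between SULT2B1, a steroid sulfotransferase (-0.36), and HSD17B2, which turns estradiol into estrone (0.51). Of the nuclear receptors other than ESR2, VDR had the smallest p, with 35 and 31.5 CPM against 45.0 and 42.0 (log2 0.39, SE 0.17), and was not called.

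Genes that earlier work on ERB in the colon followed were examined singly. MYC, a driver of proliferation, had 295 and 337 CPM with empty vector and 289 and 310 with ERB (log2 -0.08, 95% interval -0.40 to 0.24). MYB, a progenitor transcription factor, was at 53.6 and 81.3 against 68.0 and 68.9 CPM, and PROX1, a homeobox factor of colon tumours, at 53.4 and 87.3 against 96.0 and 73.7. In all 3 the groups overlapped. MIR17HG, the host transcript of a microRNA cluster, had 0.378 and 0.518 CPM against 1.59 and 0.620 (log2 1.25, SE 0.54). In counts, at 24 and 11 reads with ERB, this difference lay mostly in ERB library I. On the FPKM scale it lay in ERB library II, with 0.169 and 0.463 against 0.811 and 53.9. The 2 scales thus disagree for this gene. IL6, an inflammatory cytokine, had 0 reads in all 10 SW620 libraries.

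Cell cycle inhibitors and cyclins were described next, and none was called. CDKN1A, the p21 inhibitor, had 3.97 and 2.59 CPM against 3.91 and 5.07, and CDKN1B, the p27 inhibitor, 11.7 and 17.7 against 18.0 and 13.5. CCNE1, cyclin E, had 12.3 and 10.6 CPM against 9.21 and 8.45 (log2 -0.38, 95% interval -0.85 to 0.09), and CCND1, cyclin D1, 137 and 160 against 186 and 162. CDH1, the epithelial cadherin, was the gene of this group with the smallest p: 55.3 and 54.7 CPM with empty vector against 72.2 and 81.3 with ERB (log2 0.48, 95% interval 0.09 to 0.87), not called after adjustment. Parental cells had less CDH1 than either, at 20.8 and 15.7 CPM. Of the wider sets, 28 G1 and S phase genes and 22 G2 and mitosis genes were tested, with 0 called and medians of 0.02 and 0.04.

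The neuronal and neuroendocrine list held the most genes at a small p. Of its 35 genes 20 were tested, 0 were called and 7 had an unadjusted p under 0.05, against 1.71% of all genes. The ERB libraries were both below the controls for 7 of the 20 (11.9% of all genes) and both above for 4 (11% of all), and the median was 0.01. The list was written with earlier results of these data known, and it is no independent evidence. MAPT, the microtubule protein tau, had 1.83 and 1.44 CPM with empty vector against 0.397 and 0.620 with ERB (log2 -1.64, SE 0.36), the lowest fold change of the list. The highest was that of CHGA, a granule protein like CHGB, with 3 and 1 reads against 10 and 10, or 0.189 and 0.0575 against 0.662 and 0.564 CPM. The 2 chromogranin genes thus had fold changes of opposite sign, CHGA at a level near the floor of 3 reads. Parental cells held more of both than either compared group, at 2.14 and 2.01 CPM of CHGA and 18.9 and 14.8 of CHGB.

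Among other members, named after their values were seen, GAP43, a growth cone protein, had 8.56 and 8.80 CPM against 6.36 and 5.97. CPLX2, a regulator of vesicle fusion, had 20.02 and 16.1 against 13.6 and 12.6, and STMN3, a microtubule destabiliser, 25.7 and 22.5 against 19.5 and 17.1. SYP, the vesicle protein synaptophysin, had 15.1 and 12.2 CPM against 13.4 and 12.2. Of the markers of neuroendocrine cells, SYP and CHGB were thus expressed at the levels given above, and CHGA lay near the floor. INSM1, NEUROD1 and SNAP25 had at most 2 reads in any of the 4 libraries.

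Signalling lists likewise had no called member. Of 20 tested NF-kB and inflammatory genes, 9 had both ERB libraries above the controls (11% of all genes) and 3 both below (11.9% of all), with a median of 0.14. IL8, a chemokine, went the other way, with 1.13 and 2.19 CPM against 0.397 and 0.958 (log2 -1.26). Of 27 AP-1 and immediate early genes, 8 were above and 2 below, against the same 11% and 11.9% of all genes, with a median of 0.10. KLF2, an early response transcription factor, had 2.96 and 2.59 CPM against 5.63 and 4.51 (log2 0.87, SE 0.27), and FOSL2, a subunit of AP-1, 35.1 and 33.5 against 45.7 and 42.9 (log2 0.37). Of 24 WNT target genes, 2 were above and 5 below (11% and 11.9% of all genes); LEF1, a factor that partners beta-catenin, had 4.03 and 4.03 CPM against 2.98 and 2.82, and APCDD1, a WNT antagonist, 107 and 100 against 84.6 and 84.5. Among 21 interferon-stimulated genes 0 were above and 5 below (11% and 11.9% of all genes), with log2 fold changes between IFIT1 at -0.80 and IRF9 at 0.22.

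Epithelial and mesenchymal genes had 0 called members. Of 26 junction and polarity genes 2 were above and 3 below, and of 18 intestinal genes 1 and 3, where 11% of all genes were above and 11.9% below. FN1, the matrix protein fibronectin, had 13.2 and 12 CPM with empty vector against 7.68 and 7.44 with ERB (log2 -0.74, SE 0.22), and parental cells had 21.3 and 16.3. L1CAM, an adhesion molecule of invasive cells, had 54.4 and 48.7 against 36.8 and 40.6 CPM. TAGLN, an actin-binding protein, went the other way, with 8.94 and 6.38 against 12.3 and 10.7 CPM. Both groups lay far below the parental cells, which had 57.4 and 100.7 CPM of TAGLN. Over the 19 mesenchymal genes tested, 3 were above and 7 below (11% and 11.9% of all genes), with 0 called and a median of -0.05.

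The remaining lists had 0 called members each, and their medians lay between -0.02 and 0.09: cholesterol synthesis, ATF4 and ER stress, the circadian clock, p53 targets, mitochondrially encoded mRNAs and histone genes. Markers of other cells were low. Of 10 leukocyte markers 3 were tested, each with both ERB libraries above the controls (11% of all genes); their summed level was 14.0 to 16.8 CPM with empty vector and 19.5 in each ERB library. Most of it was LAPTM5, a lysosomal membrane protein, at 11.5 and 13 against 15 and 14.3 CPM. The 10 fibroblast markers summed to 12.2 to 12.3 CPM with empty vector and 9.92 to 12.6 with ERB, and the 6 endothelial markers to 0.920 to 1.20 and 0.564 to 0.927. Their part in the differences above was not tested.

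**Figure D5:**
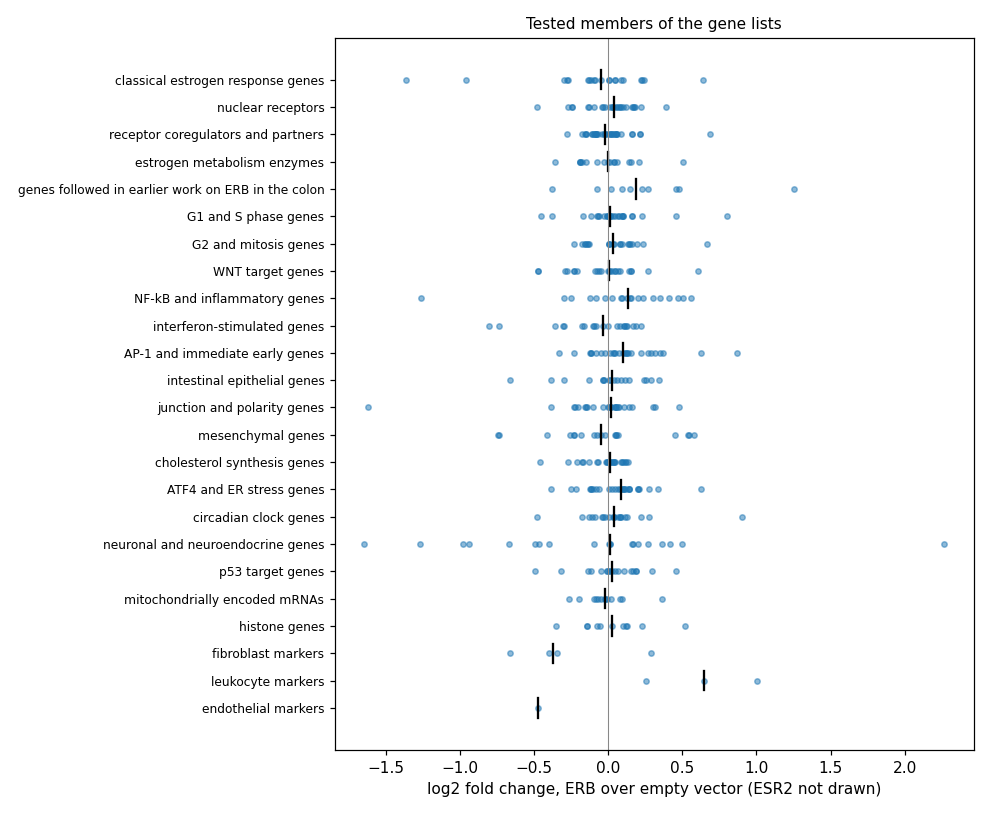
Log2 fold change of ERB over empty vector (horizontal axis) for the tested members of each gene list; each blue point is a gene, and the black bar is the median of the list with ESR2 included. ESR2 at 7.29 is not drawn; of the points drawn, the widest spread is that of neuronal and neuroendocrine genes, from -1.64 for MAPT to 2.27 for CHGA.

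The effect of ERB in SW620 was set against that in SW480 as a difference of the 2 effects. In 1 edgeR quasi-likelihood fit of all 16 libraries, 33 of 17464 genes had a difference at an adjusted p under 0.05 (0.189%), and for all 33 the effect in SW620 was below that in SW480. FN1 had a log2 fold change of -0.74 in SW620 and 2.90 in SW480 (difference -3.64, SE 0.43, adjusted p = 0.01 after Benjamini-Hochberg adjustment in edgeR). The difference for CRMP1 was -3.12, from -0.95 in SW620 and 2.17 in SW480. The SW480 control stands far from its parental cells. In SW480, FN1 was at 530 and 557 CPM in the parental libraries, at 13.6 and 9.46 in the empty vector libraries and at 63.7 and 109 in those with ERB. APCDD1 was at 726 and 918, 29.7 and 25.2, and 137 and 177 CPM in the same order. For FN1, the libraries labelled SW480 with empty vector thus lay near SW620 levels, and how far the labels of these libraries hold was not tested. These 2 libraries were alike for FN1 and APCDD1 but not for all genes. EEF1A2 was at 81.1 and 646 CPM in SW480 empty vector libraries I and II, and MYB at 84.7 and 16.6. The count was 0 without either SW620 ERB library, 7 and 1 without SW620 empty vector library I and II, 12 and 17 without SW480 ERB library I and II, and 83 and 91 without SW480 empty vector library I and II. Without SW480 empty vector library I the direction was no longer one-sided: the SW620 effect was above that in SW480 for 28 of the 83 genes and below for 55.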

How the data were processed

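Per the labels, libraries were made with a stranded mRNA kit. The 2 deposited tables were the authors' counts of reads for each gene, whole numbers taken as raw, and the authors' FPKM values. Each has 16 library columns and 0 further columns with values of samples. With GRCh37 as the build, the submitters' processing notes name Cufflinks 2.1.1, HTSeq 0.6.1, Picard 1.29, SAMtools and TopHat2 2.0.4. The tool behind each table and the use of strand in counting are not given in the sources used here. Symbols came from the FPKM table, which lacked 22 of 63677 identifiers, and 31 symbols turned into dates were replaced from the reference.

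The counts of the 10 SW620 libraries were filtered with filterByExpr, scaled with TMM factors (0.853 to 1.23) and fitted with edgeR's quasi-likelihood test (edgeR 4.0.16, R 4.3.3) as 5 groups of 2 that share 1 estimate of the spread. Calls are at a two-sided Benjamini-Hochberg adjusted p under 0.05 over all genes tested. The line was fitted alone because of 2 points stated with the last comparison. These are the doubt about the SW480 labels and the spread between the SW480 empty vector libraries. This choice, the comparison itself and the 24 gene lists were made with earlier results of these data known. Other fits used RLE factors, other filters, DESeq2 1.42.0, limma 3.58.1 on counts and on log2(FPKM + 1) or log2(FPKM + 0.1), GC and length offsets (splines with 5 degrees of freedom), a replicate block, other sets of libraries, and each library left out in turn. Offsets with the 4 or 6 untreated libraries alone were added after seeing the data. The edgeR scripts were tested on simulated data.

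Named genes are ESR2 and ESR1, the 10 per direction of smallest unadjusted p at 5 CPM or more whose groups do not overlap, the 3 of smallest p per list, and a fixed set from earlier ERB work; exceptions are marked, and CHGA, IRF9, EEF1A1, SNORA74 and MT-TP were likewise named after their values were seen. Some genes that the rule names are not reported here. Levels are given per library, since n = 2. A floor of 3 reads equals 0.160 to 0.190 CPM in the compared libraries. Motifs were searched in RefSeq promoter windows.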

Additional observations from a re-analysis of the deposited data

Results flagged for a closer look

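The effect of ERB differed between SW620 and SW480 for 33 genes by a test of the difference itself (edgeR's quasi-likelihood test of the interaction over 16 libraries, adjusted p under 0.05). Of the genes named by rule, 6 were among them. The log2 difference of the effects, SW620 minus SW480, was -3.12 for the axon regulator CRMP1, -5.68 for the secreted glycoprotein OLFM1, -2.81 for the WNT antagonist APCDD1, -3.13 for the cytokine-inducible gene TNFAIP2, -3.64 for FN1 and -3.24 for MAPT. TNFAIP2 was at 5.10 and 4.03 CPM with empty vector and 6.29 and 7.16 with ERB in SW620. In SW480 the parental libraries held 224 and 210 CPM of it, the empty vector libraries 2.93 and 5.57 and the ERB libraries 61.1 and 46.6. The part that the SW480 empty vector libraries play was not tested beyond leaving out each of them.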

How the results depend on the processing

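ESR2 was called in all 21 settings, with log2 fold changes from 3.18 (FPKM + 1) to 7.46 (DESeq2). The count of called genes, 1 by default, was 3 with the 4 compared libraries alone, 6 when GC and length offsets were added to these, 2 with the offsets over 10 libraries, 17 without a low-count filter, 10 and 7 on FPKM + 1 and FPKM + 0.1, and 33 on FPKM + 1 without a filter. The calls on FPKM were led by small RNAs such as SNORA74 and MT-TP. With a replicate block 1 gene was called, and leaving out any 1 of the 4 libraries gave 1 each time. The labels do not say whether the numbers I and II pair the samples. The differences between I and II correlated at -0.0383 between ERB and empty vector. Over the pairs of SW620 groups this ran from -0.867 (parental, empty vector) to 0.580 (parental, ERB with estradiol). Such values cannot decide the pairing, because differences between I and II also followed GC content. Here r was 0.692 for empty vector, -0.706 for parental cells, 0.713 with DMSO, -0.694 with estradiol and 0.109 for untreated ERB. The replicate block gave 16 calls in place of 33 for the difference between the lines. Leaving out each library moved that count from 0 to 91. Signs turned on FPKM + 1, + 0.1 and + 1 without a filter for MYB (-0.061 each), CCND1 (-0.079, -0.080 and -0.079), EEF1A1 (0.054 each), ICAM1 (-0.089, -0.15 and -0.089), HIST1H4H (0.45, 0.68 and 0.45) and PDGFRB (0.29, 0.49 and 0.29), and for GREB1 without a filter (-0.011). They also turned when a library was left out, with these ranges: MYC -0.17 to 0.022, MYB -0.25 to 0.35, PROX1 -0.041 to 0.67, CDKN1B -0.17 to 0.43, GREB1 -0.094 to 0.54, EEF1A1 -0.24 to 0.097, SYP -0.24 to 0.070, KIF20A -0.027 to 0.30, PROM1 -0.87 to 0.087, MT-ND6 -0.32 to 0.83 and HIST1H2AG -0.00098 to 0.51. None of these was called, and the cause was not tested. Of the other values of named genes 1844 kept direction and call, 9 passed the threshold newly, and 29 list medians moved by over the spread.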
